A study of Mus musculus with 12 samples.

Results

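The kidney keeps blood pH steady with a small set of transporters and enzymes, and 7 genes of that set are described here in the kidney cortex of mice with NASH (non-alcoholic steatohepatitis, a fatty and inflamed liver) and of control mice. They are Slc38a3, Glud1, Rhcg, Slc9a3, Slc4a4, Car2 and Car4, taken by gene symbol from the 11614 genes of the deposited tables; all 7 were present in each of the 12 RNA-seq libraries. The mice were C57BL/6J. NASH mice at 24 weeks and NASH mice at 12 weeks had received a Western diet together with carbon tetrachloride (CCl4, a liver toxin) for that time, and control mice at 24 weeks and at 12 weeks a normal diet with corn oil, with 3 libraries in each of the 4 groups. Diet, toxin and liver disease came together in the NASH mice and cannot be told apart. The labels count males and females in equal number in every group without giving the sex behind a library, and nothing in them says whether a library is a separate animal or a pool, so each p measures the spread between these samples.

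In the proximal tubule, the segment that makes most renal ammonia, glutamine enters from the blood through carriers such as Slc38a3 and loses its nitrogen as ammonium in mitochondria, the last step being catalysed by glutamate dehydrogenase, encoded by Glud1. The carbon skeleton can be turned into glucose and new bicarbonate. The sodium-proton exchanger Slc9a3 (NHE3) sends protons and ammonium into the urine, the sodium-bicarbonate cotransporter Slc4a4 (NBCe1) returns bicarbonate to the blood, and the carbonic anhydrases Car2 (cytosolic) and Car4 (anchored at the cell surface) convert between carbon dioxide and bicarbonate on either side of the membrane. Further down, in the distal nephron and collecting duct, the channel protein Rhcg lets ammonia pass into the urine. When the body must excrete acid, the kidney raises ammonia production, and induction of Slc38a3 is a known part of that response in rodents.

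The values are log2 reads per gene, scaled by the authors to a similar total in every library, and are printed below as scaled reads unless called log2. Depth, estimated from the steps of the values, ran from 7.17e+06 to 1.41e+07 reads per library, and the least covered member value rested on about 98.0 reads. The shallowest libraries were all NASH: replicates 2 and 3 at 12 weeks (7.17e+06 and 8.23e+06) and replicate 3 at 24 weeks (8.28e+06). The other NASH libraries had 1.13e+07 to 1.24e+07 reads, and the controls 1.01e+07 to 1.41e+07. The part of depth in the changes was not tested. Some genes separated the libraries by replicate number. The log2 level of Xist, counted over every group, was 10.60 to 11.54 for replicate 1, against 2.97 to 4.86 for replicates 2 and 3. That of the Y-linked Ddx3y was 2.48 to 4.25, against 8.95 to 9.62. The Y-linked Eif2s3y, Kdm5d and Uty also lay wholly lower in replicate 1. By these genes replicate 1 of each group read as female and replicates 2 and 3 as male, unlike the equal numbers that the labels count. Sex and anything else that marks replicate 1 cannot be told apart. Deviations from the group means also ran together between libraries of the same number, so each comparison was fitted with limma without and with the replicate number as a block. They ran together between numbers 2 and 3 almost as much as within either, so the pairing is clear only for replicate 1. Calls below mean a limma p under 0.05 after Benjamini-Hochberg adjustment over 11614 genes, and a change is the log2 difference NASH minus control with its standard error (SE). Markers of the proximal tubule, the main cell type of cortex, were all present (10 of 10 measured).

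Per kilobase of transcript, on the scale of scaled reads, the 7 genes ran in the order Car2, Glud1, Car4, Slc4a4, Rhcg, Slc38a3 and Slc9a3. The geometric means over the 12 libraries were 3461 for Car2, 2934 for Glud1, 2101 for Car4, 1959 for Slc4a4, 915 for Rhcg, 242 for Slc38a3 and 240.3 scaled reads per kilobase for Slc9a3. Neighbours in this order had overlapping ranges. The spread within a gene differed more than the levels of neighbours did: Slc38a3 spanned 39.7 to 761 per kilobase, a 19.2-fold range, whereas Glud1 spanned 2251 to 4169, a 1.85-fold range. The other 5 members had ranges of 2.27-fold (Slc4a4) to 3.57-fold (Slc9a3).

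**Figure D1:**
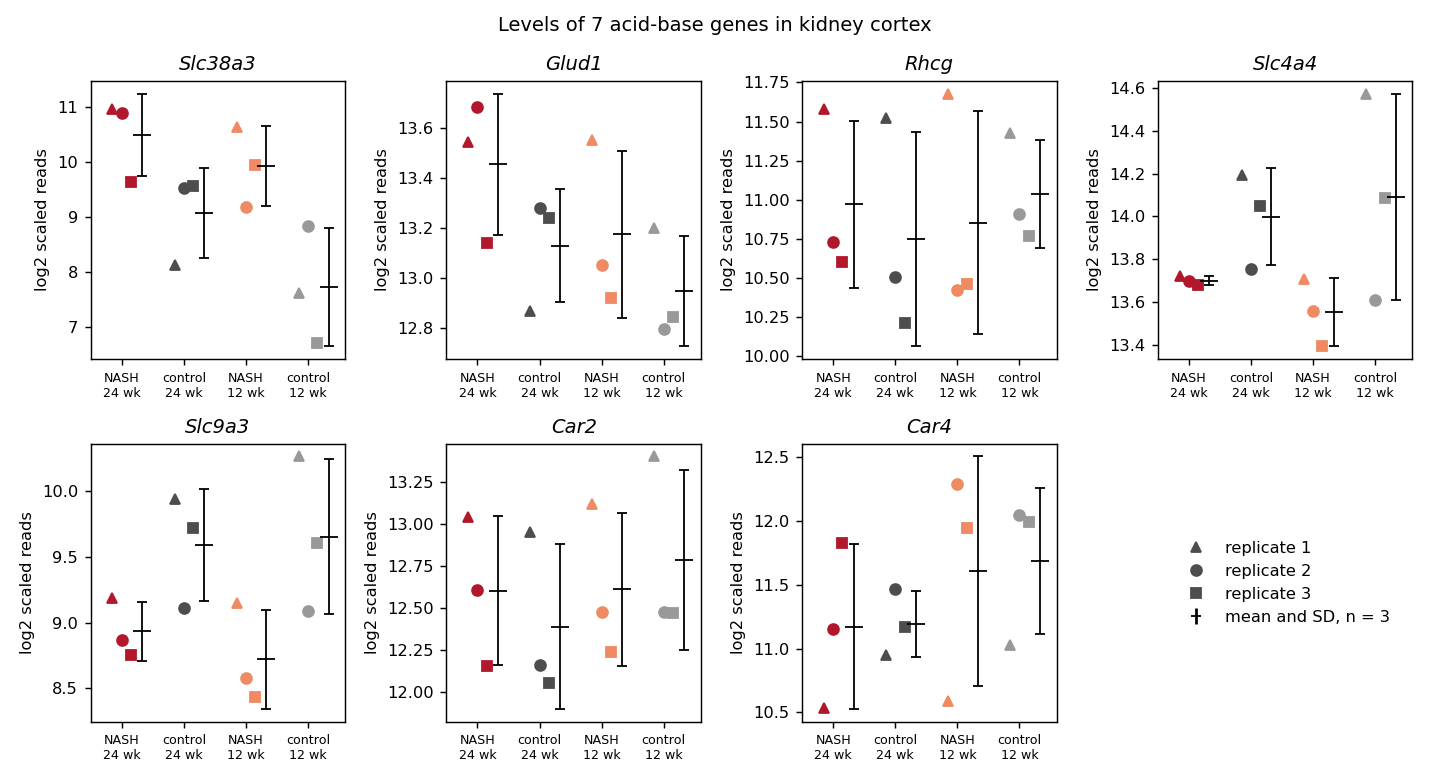
Levels of the 7 genes in each library, as log2 scaled reads, with NASH groups in red and orange left of their controls in grey; symbols give the replicate number, and bars the mean and SD of 3 libraries. All 3 NASH libraries lie above all 3 controls for Slc38a3 at both times, and the triangles of replicate 1 stand apart for Rhcg, Car2 and Car4.

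The glutamine carrier Slc38a3 was higher in NASH than in its same-numbered control in all 6 pairs of libraries, and the proton exchanger Slc9a3 and the bicarbonate cotransporter Slc4a4 were lower in all 6. None of the 7 members passed in the fit without the block; with the block these 3 passed for the average over both times, and Slc38a3 and Slc9a3 at 12 weeks. Glud1, Rhcg, Car2 and Car4 passed in neither fit. In limma without the block 0 of the 7 members were called at 24 weeks, where 0% of all genes were called, and 0 at 12 weeks, where 0.0517% were. At an unadjusted p under 0.05, 1 member at 24 weeks stood against 2.99% of all genes and 3 at 12 weeks against 14.5%. With the block 2 members were called at 12 weeks, Slc38a3 higher and Slc9a3 lower, against a background of 12.9% of all genes called, 3.01% higher and 9.85% lower. For the NASH effect averaged over both times it called 3 members, Slc38a3 higher and Slc9a3 and Slc4a4 lower, against 10.4% of all genes, 3.03% higher and 7.36% lower. Without the block the average gave 0 calls, against 0%, and 3 members at an unadjusted p under 0.05, against 13.6%. At 24 weeks alone the block called 0 members and 0.00861% of all genes, and 2 members, Slc38a3 and Slc9a3, had an unadjusted p under 0.05, against 9.68%. Of the 1494 genes that the block called at 12 weeks, 350 were higher in NASH, against 532 of 1230 after quantile normalization and 686 of 1379 after scaling by medians of ratios; for the average the numbers were 352 of 1207, 534 of 1161 and 628 of 1243. Slc38a3 and Slc9a3 kept their direction and their calls in both comparisons under both scalings.

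Slc38a3 (gene ID 76257; mm10 chromosome 9, 107651155 to 107667399, minus strand) takes up glutamine with sodium in exchange for protons. At 24 weeks it had 1987, 1908 and 795 scaled reads in NASH replicates 1, 2 and 3, against 280, 739 and 758 in controls. At 12 weeks it had 1595, 579 and 989 in NASH replicates 1, 2 and 3, against 195, 458 and 104 in controls. NASH and control libraries did not overlap at either time, and NASH lay wholly above control for 4.56% of all genes at 24 weeks and 8.14% at 12 weeks. NASH was the higher library in all 6 same-numbered pairs, as for 5.78% of genes. The pairs were uneven: at 24 weeks the differences were 2.83, 1.37 and 0.07 log2 units for replicates 1, 2 and 3, and at 12 weeks 3.04, 0.34 and 3.25. The libraries that stand closest are thus replicate 3 at 24 weeks and replicate 2 at 12 weeks.

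The mean difference in Slc38a3 was 2.21 (SE 0.60, 4.62-fold higher in NASH, n = 3 per group) at 12 weeks, which did not pass without the block (limma adjusted p = 0.26) and passed with it (SE 0.56, adjusted p = 0.0318). At 24 weeks it was 1.42 (SE 0.60, 2.68-fold higher; adjusted p = 0.999), and the average over both times was 1.82 (SE 0.43; adjusted p = 0.264 without and 0.024 with the block). With the block, the 12-week call was lost when control replicate 1 or 3 or NASH replicate 1 or 3 of that time was left out (changes 1.75 to 2.12, adjusted p 0.0863 to 0.129), with a trend over GC content and length removed (2.09, 0.065) and with replicates 2 and 3 only (1.80, 0.0899). The call of the average was lost without control replicate 3 or NASH replicate 1 at 12 weeks, or control or NASH replicate 1 at 24 weeks (1.49 to 1.67, adjusted p 0.0501 to 0.0639), and with replicates 2 and 3 only (1.26, 0.124).

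Among control mice, Slc38a3 averaged 2.57-fold higher at 24 than at 12 weeks (log2 1.36, SE 0.60), a difference that did not pass (limma adjusted p = 0.623). In NASH mice it averaged 1.49-fold higher at 24 weeks (0.57, SE 0.60, adjusted p = 0.999), which did not pass either. The NASH effects at 24 and 12 weeks were not shown to differ (24 minus 12 weeks -0.79, 95% interval -2.66 to 1.08).

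Glud1 (gene ID 14661; mm10 chromosome 14, 34310727 to 34345033, plus strand), the mitochondrial enzyme that frees ammonium from glutamate, had 11959, 13166 and 9034 scaled reads in NASH replicates 1, 2 and 3 at 24 weeks, against 7481, 9955 and 9684 in controls. At 12 weeks it had 12032, 8485 and 7758 in NASH, against 9407, 7109 and 7358 in controls. The groups overlapped at both times, and NASH was the higher library in 5 of 6 pairs. The differences were 0.33 at 24 weeks (SE 0.21, adjusted p = 0.999; 95% interval -0.13 to 0.78) and 0.23 at 12 weeks (SE 0.21, adjusted p = 0.635; -0.23 to 0.69). Over the 12 libraries the log2 levels of Glud1 and Slc38a3 had a Pearson correlation of 0.73, a description of libraries that share groups and replicate numbers.

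Rhcg (gene ID 56315; mm10 chromosome 7, 79593363 to 79617657, minus strand), the ammonia channel, had 3063, 1696 and 1551 scaled reads in NASH replicates 1, 2 and 3 at 24 weeks, against 2937, 1455 and 1187 in controls. At 12 weeks it had 3277, 1370 and 1409 in NASH, against 2754, 1923 and 1746 in controls. In each group replicate 1 was the high library, and the groups overlapped. The difference was 0.22 at 24 weeks (SE 0.42, adjusted p = 0.999; 95% interval -0.70 to 1.14) and -0.18 at 12 weeks (SE 0.42, adjusted p = 0.865; -1.10 to 0.74), and NASH was higher in all 3 pairs at 24 weeks, as for 19.3% of genes, but in 1 of 3 at 12 weeks. With the block the 95% intervals narrowed to -0.07 to 0.52 at 24 weeks and -0.48 to 0.11 at 12 weeks.

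Slc9a3 and Slc4a4 are the apical and basolateral partners of proximal bicarbonate recovery, and their promoters are shown because their levels ran closely together over the 12 libraries. Each promoter is the 250 bases before the annotated start in RefSeq on GRCm38.p6, plus strand, 5′ to 3′; the table held 5 of the 7 members, not Slc38a3 or Car2. Slc4a4 has a pair of annotated starts far apart in the gene. Capitals mark the E-box CACGTG, the letters to which the clock factors Clock and Arntl bind.
Slc9a3, chr13:74121163-74121412: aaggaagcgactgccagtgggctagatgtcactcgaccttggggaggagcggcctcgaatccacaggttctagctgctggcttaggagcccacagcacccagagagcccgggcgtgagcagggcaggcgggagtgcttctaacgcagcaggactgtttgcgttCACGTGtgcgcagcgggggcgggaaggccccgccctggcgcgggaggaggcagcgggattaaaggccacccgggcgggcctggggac
Slc4a4 upstream start, chr5:88887010-88887259: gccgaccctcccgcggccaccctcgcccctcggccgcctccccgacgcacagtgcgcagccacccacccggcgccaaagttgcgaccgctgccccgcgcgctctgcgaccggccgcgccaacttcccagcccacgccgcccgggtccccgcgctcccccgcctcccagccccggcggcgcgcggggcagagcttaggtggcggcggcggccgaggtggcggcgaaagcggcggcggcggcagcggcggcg
Slc4a4 downstream start, chr5:89027716-89027965: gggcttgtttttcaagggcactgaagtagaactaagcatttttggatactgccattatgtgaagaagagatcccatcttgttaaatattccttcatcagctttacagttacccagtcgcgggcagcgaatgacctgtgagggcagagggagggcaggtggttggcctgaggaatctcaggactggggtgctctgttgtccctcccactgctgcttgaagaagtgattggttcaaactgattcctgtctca

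The Slc9a3 promoter held 1 E-box, starting 87 bases before the RefSeq start; the deposited tables place the start of Slc9a3 102 bases further on, which puts the E-box 189 bases before it. For Glud1, Rhcg, Car4 and the upstream start of Slc4a4 both sources gave the same start. In these windows neither Slc4a4 promoter held CACGTG, nor did those of Glud1, Rhcg and Car4. Of 32851 mouse promoters searched over the same length, 6.02% held CACGTG, which reads the same on both strands, and 0.819% held the D-box TTATGTAA on either strand, the letters bound by Dbp and its relatives, which no member promoter held. GC content was 67.6% in the Slc9a3 promoter, 82% at the upstream and 48.8% at the downstream Slc4a4 start. Clock genes, picked here after their values were seen, did not overlap between NASH and control at 12 weeks: Arntl had 227, 186 and 188 scaled reads in NASH replicates 1, 2 and 3, against 685, 556 and 630 in controls, and Dbp had 933, 1215 and 1077 in NASH, against 32, 36 and 12 in controls. At 12 weeks NASH lay wholly above control, as for Dbp, in 8.14% of all genes. The share wholly below, as for Arntl, is not given, and 33% of genes were lower in all 3 same-numbered pairs, as Arntl was. At 24 weeks Dbp had 49, 401 and 106 in NASH, against 53, 233 and 258 in controls. Arntl then ran from 289 to 594 in NASH, against 238 to 579 in controls, so both genes overlapped. The labels used here do not give the hour of dissection, and its part in the levels of Slc9a3 or any other member was not tested.

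Slc9a3 (gene ID 105243; mm10 chromosome 13, 74121515 to 74166064, plus strand) had 582, 467 and 430.4 scaled reads in NASH replicates 1, 2 and 3 at 24 weeks, against 983, 554 and 844 in controls. At 12 weeks it had 567, 382 and 345 in NASH, against 1232, 545 and 778 in controls. NASH was the lower library in all 6 pairs, as for 7.65% of genes, although the highest NASH library exceeded the lowest control at both times. The pairs differed by -0.76, -0.25 and -0.97 log2 units for replicates 1, 2 and 3 at 24 weeks, and by -1.12, -0.51 and -1.17 at 12 weeks, so replicate 2 showed the smallest difference each time.

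Slc9a3 was 1.91-fold lower in NASH at 12 weeks (-0.93, SE 0.31, n = 3 per group), which did not pass without the block (limma adjusted p = 0.277) and passed with it (SE 0.17, adjusted p = 0.0115). At 24 weeks it was 1.58-fold lower (-0.66, SE 0.31, adjusted p = 0.999). The average over both times was -0.80 (SE 0.22, 1.74-fold lower; adjusted p = 0.276 without and 0.0098 with the block), and with the block it stayed called without any of the 12 libraries in turn. The 12-week call with the block was lost without control replicate 3 (-0.90, adjusted p = 0.0536) and with replicates 2 and 3 only (-0.84, 0.0501). Between the times the NASH effects differed by 0.28 (24 minus 12 weeks, 95% interval -0.69 to 1.24), which did not pass.

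Slc4a4 (gene ID 54403; mm10 chromosome 5, 88887260 to 89239656, plus strand) had 13519, 13302 and 13107 scaled reads in NASH replicates 1, 2 and 3 at 24 weeks, against 18739, 13809 and 16974 in controls. At 12 weeks it had 13386, 12060 and 10760 in NASH, against 24381.5, 12501 and 17414 in controls. NASH was the lower library in all 6 pairs; the groups did not overlap at 24 weeks, where 2.65% of genes had NASH wholly below control, and overlapped at 12 weeks, where control replicate 2 lay below NASH replicate 1. The 24-week NASH libraries lay close together, with a log2 SD of 0.022, against 0.22 in the 24-week controls.

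The difference in Slc4a4 was -0.54 at 12 weeks (SE 0.22, 1.45-fold lower; limma adjusted p = 0.307 without and 0.0501 with the block, which did not pass) and -0.30 at 24 weeks (SE 0.22, 1.23-fold lower, adjusted p = 0.999). Averaged over both times it was -0.42 (SE 0.15, 1.34-fold lower; adjusted p = 0.307 without the block), which passed with the block (SE 0.11, adjusted p = 0.0418). That call was lost in limma in 9 of the 12 refits that each left out a library (-0.44 to -0.33, adjusted p 0.0609 to 0.109); it was kept without control replicate 2 or NASH replicate 2 at 12 weeks, or NASH replicate 2 at 24 weeks. Scaling by medians of ratios lost it too (-0.38, adjusted p = 0.0886), as did removing the GC and length trend (-0.23, 0.228) and keeping replicates 2 and 3 only (-0.29, 0.176). Beside both genes, the proximal tubule marker sum at 12 weeks ran from 215293 to 276837 scaled reads in NASH, against 243548 to 280944 in controls, and 3 of the 10 markers had a positive change, against 40.4% of all genes (median -0.09, none called). At 24 weeks that sum ran from 235942 to 247028 in NASH, against 233063 to 238608 in controls, with 5 of 10 markers positive (median 0.01). In bulk cortex, fewer proximal tubule cells and less RNA per cell cannot be told apart.

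**Figure D2:**
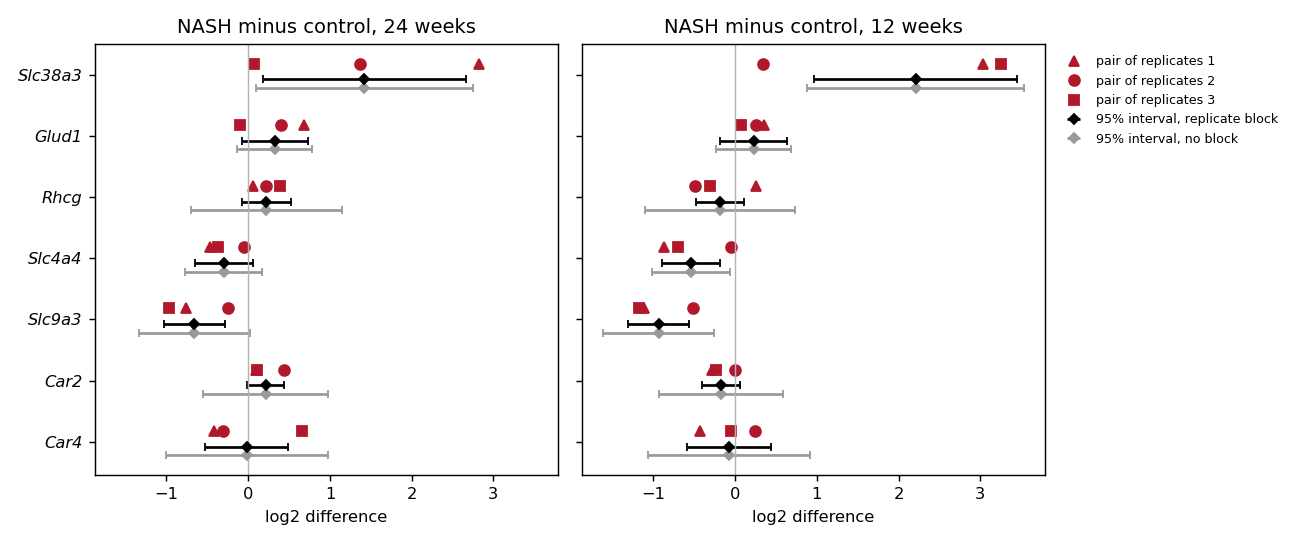
Log2 difference of NASH minus control for each gene at 24 weeks (left) and 12 weeks (right); red symbols are the differences of same-numbered libraries, and diamonds the mean difference with its 95% interval with the replicate block (black) and without it (grey). The pairs of Slc38a3 all lie above 0 and those of Slc9a3 and Slc4a4 all below 0 at both times, whereas those of Car4 lie on both sides of 0 at each time, those of Rhcg at 12 weeks only, and those of Car2 above 0 at 24 weeks and below 0 at 12 weeks.

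Car2 (gene ID 12349; mm10 chromosome 3, 14886426 to 14900770, plus strand) encodes the cytosolic carbonic anhydrase of tubule, intercalated and red blood cells. It had 8431, 6233 and 4573 scaled reads in NASH replicates 1, 2 and 3 at 24 weeks, against 7921, 4584 and 4260 in controls, and at 12 weeks 8895, 5691 and 4843 in NASH, against 10807, 5706 and 5681 in controls. NASH was higher in all 3 pairs at 24 weeks and lower in all 3 at 12 weeks, as 33% of genes were at that time, while the groups overlapped at both times. The differences of 0.21 (SE 0.35, adjusted p = 0.999; 95% interval -0.55 to 0.97) and -0.17 (SE 0.35, adjusted p = 0.844; -0.93 to 0.59) did not pass. The difference between these effects was 0.38 (24 minus 12 weeks, SE 0.49, adjusted p = 0.9995; with the block SE 0.15, adjusted p = 0.318). Red blood cell markers, of which 6 of 8 were measured, had sums at 24 weeks of 2028 to 5853 in NASH, against 1189 to 2858 in controls (6 of 6 positive, median 1.26, none called). At 12 weeks the sums were 2214 to 7879 in NASH, against 2166 to 2376 in controls (5 of 6 positive, median 0.80, none called). This list holds Slc4a1, which is also on the intercalated cell list, so the sums are not of blood alone. At 24 weeks Slc4a1 had 427 to 1480 scaled reads in NASH, against 483 to 1231 in controls. Its change was the lowest of the 6 at 24 weeks (0.01) and at 12 weeks (-0.25). For the average over both times the block called 4 of the 6, where 10.4% of all genes were called. The part of these markers in Car2 was not tested.

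Car4 (gene ID 12351; mm10 chromosome 11, 84957754 to 84966054, plus strand) encodes the surface carbonic anhydrase of the proximal tubule and of endothelium. It had 1485, 2280 and 3636 scaled reads in NASH replicates 1, 2 and 3 at 24 weeks, against 1977, 2824 and 2301 in controls, and at 12 weeks 1542, 5001 and 3939 in NASH, against 2084, 4222 and 4069 in controls. Replicate 1 was the lowest library of every group. The changes were -0.02 at 24 weeks (SE 0.45, adjusted p = 0.999; 95% interval -1.01 to 0.97) and -0.08 at 12 weeks (SE 0.45, adjusted p = 0.95; -1.07 to 0.91), and as ratios of NASH to control the intervals span 0.496 to 1.96 at 24 weeks and 0.476 to 1.88 at 12 weeks.

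Between 24 and 12 weeks limma called 0 members in NASH mice and 0 in control mice. Without the block 0% of all genes were called in either; with it 0.0258% were in NASH mice and 0.172% in control mice. At an unadjusted p under 0.05, 0 members stood against 4.76% of genes in NASH mice without the block and 0 against 11.5% with it. In control mice it was 1 member, Slc38a3, against 7.84%, and with the block 2, Slc38a3 and Car2, against 19.5%. The largest member change with time in NASH mice was that of Slc38a3 given above, and the next that of Car4 (-0.43, SE 0.45). In control mice Car4 was 1.41-fold lower at 24 than at 12 weeks (-0.49, SE 0.45, adjusted p = 0.804) and Car2 1.31-fold lower (-0.39, SE 0.35, adjusted p = 0.801; with the block SE 0.10, 0.0956). For the difference of the NASH effects between the times 0 of the 7 were called without and with the block, where 0% and 0.00861% of all genes were. At an unadjusted p under 0.05 it was 0 members without the block, against 3.66%, and 1 with it, Car2, against 12.8%.

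The replicate number separated 3 of the 7 genes completely, and this is a description with no test. Rhcg had 2754 to 3277 scaled reads in replicate 1 of the 4 groups, against 1187 to 1923 in replicates 2 and 3, a 1.97-fold higher mean. Car2 had 7921 to 10807, against 4260 to 6233, 1.74-fold higher, and Car4 had 1485 to 2084, against 2280 to 5001, 1.95-fold lower. Such a separation held for 15% of all genes above and 4.21% below, 19.2% together. Slc38a3, Glud1, Slc4a4 and Slc9a3 overlapped between the numbers. With Rhcg and Car2 ran the summed markers of intercalated cells, the acid and base secreting cells of the collecting duct (10 of 10 measured), at 11193 to 12492 in replicate 1, against 5302 to 7834. Sums of podocyte markers (6 of 6 measured) stood at 11606 to 14811, against 4590 to 7189, and of endothelial markers (8 of 8 measured) at 8221 to 12131, against 3107 to 8397. Those of thick ascending limb and distal tubule markers (7 of 7 measured) stood at 56999 to 111046, against 25425 to 63935.5. Proximal tubule sums overlapped (233063 to 246589, against 215293 to 280944), as did those of principal cells of the collecting duct (8057 to 13122, against 6505 to 10071). Red blood cell, macrophage and adipocyte sums overlapped too. Of the proximal markers Slc22a6 lay wholly lower in replicate 1 (7253 to 11727, against 17992 to 31614), and the others overlapped. The part of these cell types, and of the split in Xist and Ddx3y, in the levels of the 3 genes was not tested.

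Members fell into pairs by their levels over the 12 libraries, given here as Pearson correlations of log2 values that share groups, depth and replicate numbers. Slc4a4 and Slc9a3 had r = 0.96, and Rhcg and Car2 r = 0.91, while Rhcg and Car4 ran against each other at -0.71. Among all other named genes, Scyl2, a kinase-like protein of vesicle traffic, was the most alike to both Slc9a3 (r = 0.98) and Slc4a4 (0.95), followed for Slc9a3 by Lmbrd2 (0.98) and the motor protein Myo5b (0.98) and for Slc4a4 by Lysmd3 (0.95) and Lmbrd2 (0.95). Rhcg was most like B3gnt7 (0.99), Lyplal1 (0.98) and the podocyte protein Podxl (0.98). Car2 was most like Gatm (0.98), which makes the precursor of creatine, Slc7a8 (0.97) and B3galnt1 (0.96), and Car4 like Csnk1g3 (0.92), Xylb (0.92) and Acox3 (0.92). For Slc38a3 the 3 most alike were Galt (0.95), an enzyme of galactose breakdown, Rrp1 (0.92) and Erp29 (0.91), and for Glud1 Lmntd2 (0.88), Rogdi (0.88) and Tmem220 (0.86).

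**Figure D3:**
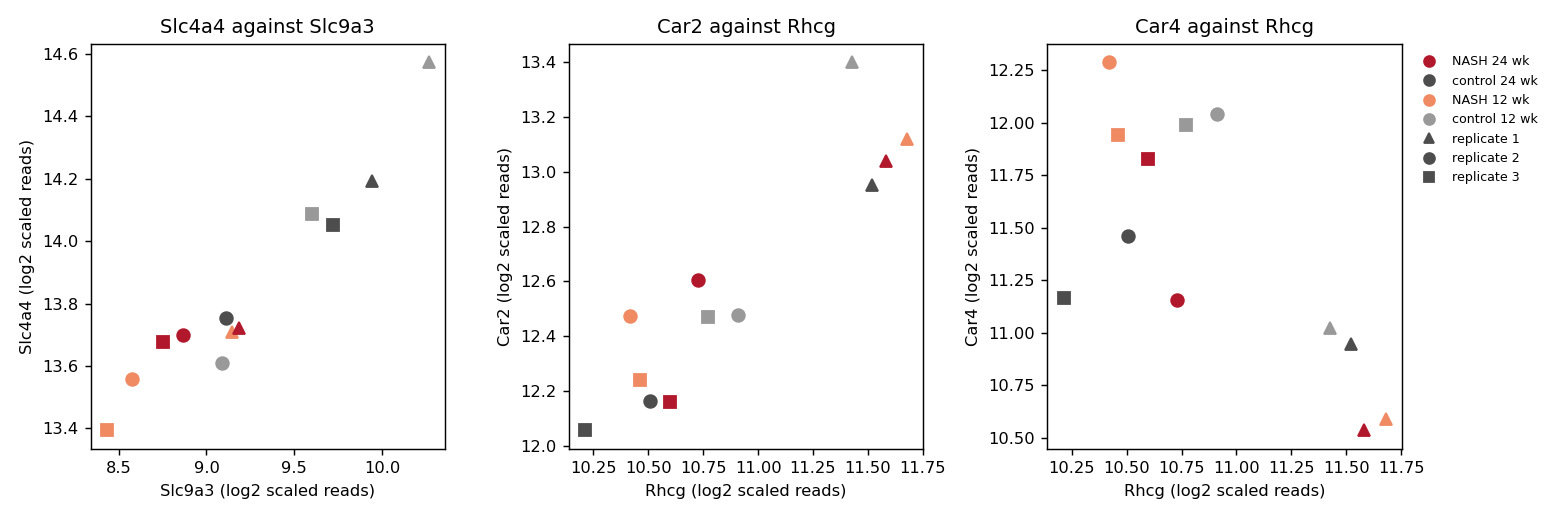
Log2 scaled reads of Slc4a4 against Slc9a3, Car2 against Rhcg and Car4 against Rhcg in the 12 libraries; colours give the group and symbols the replicate number. All 6 NASH libraries share the low end of the Slc9a3 axis with replicate 2 of both control groups, the other 4 controls lie above them, and the triangles of replicate 1 form their own cluster along the Rhcg axis.

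Of 59 other genes of renal acid-base handling, 50 were measured, and the block called 5 of them at 12 weeks (3 higher, 2 lower), against 12.9% of all genes, and 6 for the average over both times (2 higher, 4 lower), against 10.4%; these are 10% and 12% of the 50, near the shares of all genes. With replicates 2 and 3 only, 9 were called at 12 weeks without the block and 11 with it, where 385 and 632 of the 11614 genes were. Unlike the shares over the 12 libraries, these are larger shares of the 50 than of all genes. The 50 were chosen with earlier results of these data known, and the larger share was not tested. At 24 weeks the block called 0, and limma without the block called 0 in any comparison over the 12 libraries (2 at 24 weeks, 6 at 12 weeks and 5 for the average had an unadjusted p under 0.05). Their median change was 0.03 at 24 weeks, against 0.01 over all genes, and -0.03 at 12 weeks, against -0.08.

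The genes called higher at 12 weeks belong to citrate recovery, glucose synthesis and carbon dioxide hydration. Slc13a2, which reclaims citrate from the urine, had 1824, 1536 and 1336 scaled reads in NASH replicates 1, 2 and 3, against 561, 645 and 531 in controls (1.43, block SE 0.23, limma adjusted p = 0.00859), and this call was kept whichever of the 12 libraries was left out. Pck1, which starts glucose synthesis from the carbon left by ammonia production, had 104944, 86066 and 56798, against 47425, 14877 and 14567 (1.88, block SE 0.48, adjusted p = 0.0316). Car14, a membrane carbonic anhydrase of the proximal tubule, had 1604, 2342 and 1710, against 1592, 914 and 1011 (0.71, block SE 0.20, adjusted p = 0.0442). All 3 genes had NASH libraries wholly above the controls at 12 weeks, as for 8.14% of all genes, though for Car14 replicate 1 differed by only 0.01 log2 units. They are named because the same comparison called them higher, so this separation adds nothing to the calls. At 24 weeks Slc13a2 and Pck1 overlapped between NASH and control.

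The genes called lower at 12 weeks were Slc26a4 (pendrin, the chloride-bicarbonate exchanger of bicarbonate-secreting intercalated cells; -0.53, block SE 0.15, limma adjusted p = 0.0449) and Atp4a, a proton-potassium pump subunit (-0.59, block SE 0.13, adjusted p = 0.0222). All 6 measured proton pump genes had a negative change at 12 weeks (median -0.41, 1 called), where 40.4% of all genes had a positive one; after quantile normalization or scaling by medians of ratios, with 49.5% and 50.9% of all genes positive, all 6 were negative too (medians -0.32 and -0.32). All 6 overlapped between NASH and control at 12 weeks. Their replicate 1 pairs then differed by 0.32 (Atp6v1b1), 0.24 (Atp6v1c2), -0.02 (Atp6v1g3), -0.06 (Atp6v0d2), -0.38 (Atp4a) and -0.45 (Atp6v0a4). At 24 weeks 2 of the 6 were positive (median -0.10), against 52.1% of all genes. The intercalated marker sum ran at 12 weeks from 5302 to 12332 in NASH, against 7404 to 11360 in controls, with 2 of 10 markers positive (median -0.36), a list that itself holds Slc26a4 and 3 of the pump genes, and the part of cell number in these changes was not tested. For the average over both times the block called Slc13a2 (0.85) and Car14 (0.63) higher and Atp6v1g3 (-0.38), Atp6v0a4 (-0.36), Slc34a3 (-0.31) and Car3 (-1.95) lower.

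Apart from those of Slc13a2, these calls were lost in some of the refits that each left out 1 of the 12 libraries. At 12 weeks Pck1 was lost without control replicate 2 or 3 or any of the 3 NASH replicates of that time (1.40 to 2.03, limma adjusted p 0.0529 to 0.118), and Atp4a without control replicate 2 or 3 or NASH replicate 1 or 2 of that time (-0.67 to -0.42, 0.0502 to 0.0878). Car14 was kept at 12 weeks only without control replicate 1 at 12 weeks or NASH replicate 1 at 24 weeks (otherwise 0.47 to 0.89, 0.0506 to 0.16), and Slc26a4 only without replicate 1 of the 12-week NASH, 24-week NASH or 24-week control group (otherwise -0.58 to -0.41, 0.0501 to 0.169). With the GC and length trend removed, Slc26a4 (-0.46, 0.127), Pck1 (1.84, 0.0614) and Car14 (0.61, 0.126) were lost, and Slc26a4 also after quantile normalization (-0.45, 0.0755) and scaling by medians of ratios (-0.45, 0.0877). Under that last scaling the anion exchanger Slc26a6 was called in its place (1.12, 0.0433).

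For the average, Slc13a2 was called without each library in turn and lost with replicates 2 and 3 only (0.64, limma adjusted p = 0.0886). Car14 was lost without control replicate 3 or NASH replicate 2 at 12 weeks, or control replicate 1 or 3 or NASH replicate 3 at 24 weeks (0.53 to 0.64, 0.053 to 0.0728). Atp6v0a4 was kept only without control replicate 2 at 12 weeks or NASH replicate 2 at 24 weeks (otherwise -0.40 to -0.28, 0.0538 to 0.0949), and Atp6v1g3 only without control or NASH replicate 1 at 12 weeks or control replicate 2 at 24 weeks (otherwise -0.41 to -0.33, 0.0544 to 0.0854). Slc34a3, a phosphate carrier of the proximal tubule, was kept only without replicate 2 of any 1 group (otherwise -0.32 to -0.27, 0.0532 to 0.0796). Quantile normalization lost Slc34a3 (-0.27, adjusted p = 0.0525), and scaling by medians of ratios lost it (-0.27, 0.0614) and Atp6v0a4 (-0.32, 0.0886). Removing the GC and length trend lost Car14 (0.55, 0.0686), Atp6v0a4 (-0.28, 0.125), Atp6v1g3 (-0.38, 0.0962) and Car3 (-2.01, 0.0739). Keeping replicates 2 and 3 only lost Atp6v0a4 (-0.31, 0.0862), Slc34a3 (-0.32, 0.125) and Car3 (-1.54, 0.0834), and quantile normalization added Pck1 (1.04, 0.0452).

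Car3, a carbonic anhydrase abundant in fat cells, had 1 control library far above the rest at 24 weeks: it had 197, 679 and 110 scaled reads in NASH replicates 1, 2 and 3, against 9205, 1017 and 801 in controls (-3.00, SE 0.88, adjusted p = 0.999). Adipocyte markers (8 of 8 measured) summed to 564 to 1645 in NASH and 1705 to 21784 in controls at 24 weeks, with 0 of 8 positive, and to 952 to 2577 in NASH and 419 to 1388 in controls at 12 weeks, with 8 of 8 positive; none was called, and their part in Car3 was not tested. Its call for the average was kept only without control replicate 1 at 12 weeks or replicate 2 of either 24-week group (otherwise -2.14 to -1.44, limma adjusted p 0.0632 to 0.097).

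**Figure D4:**
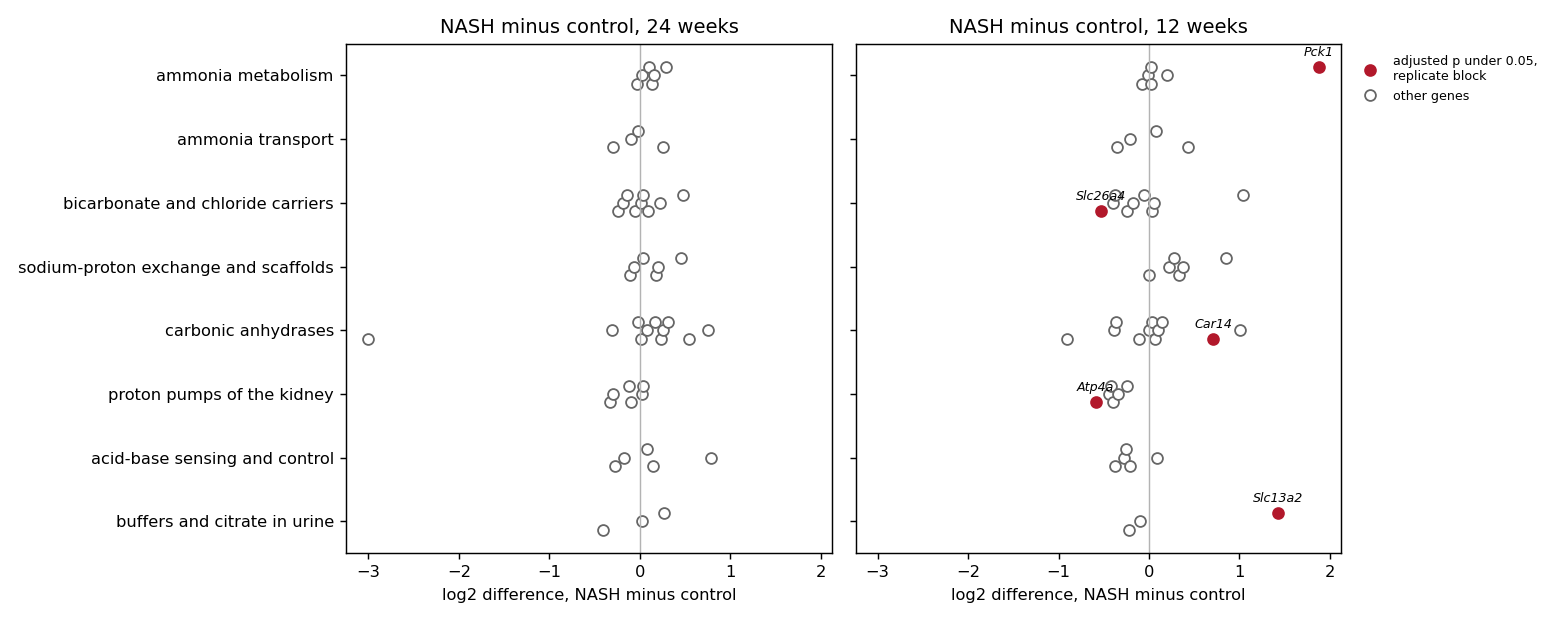
Log2 difference of NASH minus control for 50 other acid-base genes, grouped by role, at 24 weeks (left) and 12 weeks (right); each circle is a gene, filled where it was called with the replicate block. No gene is filled at 24 weeks, and at 12 weeks Pck1, Slc13a2 and Car14 lie right of 0 and Slc26a4 and Atp4a left of it.

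Next by p among the other genes, and not passing, were Car14 (0.54) and the anion exchanger Slc4a3 (0.48) at 24 weeks, and at 12 weeks the apical anion exchanger Slc26a6 (1.04, adjusted p = 0.0559 with the block and the deposited scaling), the sulfate carrier Slc26a1 (-0.40) and the scaffold protein Pdzk1 (0.28). For the difference of the NASH effects they were Slc13a2 (-1.16), Slc26a6 (-1.17) and Pck1 (-1.58), each with a smaller change at 24 than at 12 weeks. In control mice Pck1 was 4.39-fold higher at 24 than at 12 weeks (2.13, block SE 0.48, adjusted p = 0.0819) and Slc13a2 1.86-fold higher (0.90, block SE 0.23, adjusted p = 0.094), without passing. Glul, which binds ammonia into glutamine, had differences of 0.13 at 24 weeks and -0.01 at 12 weeks (SE 0.47 each) and passed at neither time.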

How the data were processed

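Each of the 12 deposited tables held log2 values for 11614 genes, 1 library of kidney cortex RNA per table; the submitters' processing notes name BWA, limma and mm10 without versions or roles. The scaling and counting steps, and whether counting used strand, are not given in the sources used here. RefSeq places Gm35855 over Slc4a4 and Gm41003 over Slc9a3, so reads of these pairs might be shared. Low values lay on steps of 1 read (86.3 to 91.5% of those below 60 steps were whole within 0.01 steps), which put depth at 7.17e+06 to 1.41e+07 reads, scaled by the authors to totals of 1.36e+07 to 1.41e+07; every gene reached 100 scaled reads in at least 1 library.

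The log2 values as deposited were fitted with limma 3.58.1 (R 4.3.3; Python 3.11.15 for summaries) with a mean for each of the 4 groups and a mean-variance trend, 2-sided, for NASH against control at each time, their difference and average, and 24 against 12 weeks in each condition. The replicate number came from the labels, which do not say what it marks. Deviations from the group means correlated at 0.187 to 0.742 (median 0.519) in all 18 same-numbered pairs of libraries over all genes, so the number was taken to pair the samples, and the fit with it as a block is given beside the one without. Libraries numbered 2 and 3 also correlated with each other, at 0.187 to 0.637 (median 0.365), against medians of 0.400 within number 2 and 0.434 within number 3. The median was 0.701 within number 1, and -0.504 and -0.564 between number 1 and numbers 2 and 3. The correlations thus set replicate 1 apart and hardly separate pairing 2 with 2 from pairing 2 with 3. Both fits were also run on simulated data with known changes in the 12-week NASH group, drawn from the same model as the fit. Such a run checks the code and cannot show whether the block suits these data.

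The 7 genes, the 59 other acid-base genes and the cell type markers were chosen with earlier results of these data known. Other acid-base genes are named where called in either fit, with up to 3 more of smallest p per comparison, and for each member the 3 genes with the highest Pearson correlation, leaving out predicted loci. Alternatives were quantile normalization, median-of-ratios scaling, log2 of the value plus 16, a mean log2 of at least 5, no trend, the compared libraries alone, the block alone or with either scaling or with a spline trend (4 degrees of freedom) over GC content and length removed (known for 97.9% of genes), replicates 2 and 3 only, and leaving out each library. Promoters came from RefSeq on GRCm38.p6.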

Additional observations from a re-analysis of the deposited data

How the results depend on the processing

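At 24 weeks 0 of the 7 members were called under each of the 36 alternatives, and no call of a member changed sign. Of 1498 alternative values of single members over all comparisons, 1329 kept direction and side of the threshold, 64 passed where the fit without the block did not, and 105 changed sign, none of these called; the cause was not tested. At 12 weeks, where 0 members were called without the block, the replicate block called 2, the block with quantile normalization 3, with median-of-ratios scaling 2 and without the trend over GC and length 1, and leaving out 1 library gave 0 to 3. For the average, 0 without the block became 3 with it, 3 with quantile normalization, 2 with median-of-ratios scaling, 2 without the trend over GC and length and 1 with replicates 2 and 3 only, and 0 to 3 without 1 library. The block alone called 12.9% of all genes at 12 weeks and 10.4% for the average. Counts of all genes for the block with either scaling are given above, and for most other settings the share is not given. The member counts here show only how far the calls hold. Pairing by replicate number with replicates 2 and 3 only also called Rhcg between 24 and 12 weeks in control mice (1 member; -0.48, limma adjusted p = 0.0383); the block changed no other member call.

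Of the other acid-base genes, 0 were called without the block. In the same order the blocked counts were 5, 4, 5 and 2 at 12 weeks (not the same 5 genes: Slc26a6 took the place of Slc26a4) and 6, 6, 4 and 2 for the average. Replicates 2 and 3 only gave 9 without and 11 with the block at 12 weeks, 3 and 3 for the average, 1 and 1 for the difference of the NASH effects, 7 and 9 for time in NASH mice, and 6 and 6 for time in control mice. Leaving out 1 library gave 0 to 7 at 12 weeks, 0 to 5 for the average, 0 to 3 for time in NASH mice and 0 to 2 for time in control mice. The share of all genes called is not given for these refits, or for replicates 2 and 3 only outside 12 weeks. It is not given with the GC and length trend removed either. Those counts are no result about the acid-base genes.

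Apart from refits without 1 library, values that changed sign were the same with and without the block where both were run. With replicates 2 and 3 only, Car4 was 0.175 at 24 weeks, 0.0988 at 12 weeks and 0.137 for the average, Glud1 -0.0142 for the difference, Rhcg -0.0480 for the average, Car2 0.0241 for time in NASH mice, and Slc4a4 0.0533 and Slc9a3 0.0709 for time in control mice. Median-of-ratios scaling gave Car4 0.00844 at 12 weeks and -0.0351 for the difference, and Slc9a3 0.0134 for time in control mice. Quantile normalization gave Car2 -0.0134 for the average and Slc9a3 0.0245 for time in control mice. With the GC and length trend removed and the block, Rhcg was -0.0819 and Car2 -0.0146 for the average, Car2 0.0334 for time in NASH mice and Slc4a4 0.0168 for time in control mice.

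Without 1 library, at 24 weeks Rhcg ran from -0.0832 to 0.609, Car2 from -0.00791 to 0.492 and Car4 from -0.348 to 0.298. At 12 weeks Rhcg ran from -0.596 to 0.0339, Car2 from -0.425 to 0.137 and Car4 from -0.420 to 0.429. For the difference, Glud1 ran from -0.153 to 0.287, Slc4a4 from -0.00365 to 0.478, Slc9a3 from -0.0302 to 0.558 and Car4 from -0.450 to 0.399. For the average, Rhcg ran from -0.187 to 0.213, Car2 from -0.107 to 0.174 and Car4 from -0.220 to 0.204. For time in NASH mice, Slc38a3 ran from -0.128 to 1.03, Rhcg from -0.189 to 0.529 and Car2 from -0.229 to 0.244. For time in control mice, Slc4a4 ran from -0.331 to 0.150 and Slc9a3 from -0.343 to 0.245.

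The compared libraries alone are the same 12 for the difference and the average, so they gave no value there. Each member value rested on at least 98.0 reads, and counting error was not compared with the spread between libraries.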
